A study of Rattus norvegicus with 16 samples.

Results

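The genes of phosphoinositide signalling were analysed in PCCl3 cells, a differentiated follicular cell line of the Fischer rat thyroid, after silencing of the transcription factor *Pax8*. The array probes were named through their RefSeq accessions, and every probe whose rat symbol started with Pik3, Pi4k, Pip4k, Pip5k, Plcb, Plcd, Plce, Plcg, Inpp, Itpr, Itpk, Prkc, Dgk, Synj or Mtmr was taken. This gave 51 genes on 71 probes, of 8899 genes that could be named on 10768 probes, out of 41012 probes in all. Of these 51 genes, 43 had at least 1 probe above background, that is, well above it in at least 16 of the 32 channels of the 16 arrays. The remaining 8, *Prkcb*, *Plcb2*, *Dgkg*, *Prkch*, *Dgkb*, *Inpp4b*, *Plcd1* and *Pik3c2g*, were not. *Itpripl1* and *Synj2bp*, which encode an IP3 receptor interacting protein-like protein and a synaptojanin binding protein, entered through their symbols alone and belong to no enzyme family of the pathway.

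All cells were kept in medium with 6 hormones, including 1 nM thyrotropin (TSH). si*Pax8* cells were transfected with an siRNA against *Pax8*, and siScramble cells with a scrambled siRNA, both at 10 ng/ml and with a lipofection reagent. The wild type (wt) cells are described by the study's methods as treated with lipofectamine and by a supplement as not transfected, so the comparison against wt holds the siRNA and its transfection together with the loss of *Pax8*, which cannot be told apart there. RNA taken 48 hours after transfection was amplified and hybridized to Agilent rat arrays with 2 dyes, si*Pax8* against wt on 8 arrays and si*Pax8* against siScramble on 8. Each comparison had 4 replicates, each hybridized in both dye orientations. Both comparisons measured the si*Pax8* condition, and whether they used the same RNA extracts of it is not given in the sources used here, so they may not be independent of each other. A value below is a log2 ratio of si*Pax8* over the control, with 1 value per gene and replicate. The labels call the replicates biological but do not name separate cultures, so p measures only the spread between these samples.

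Phosphoinositides are membrane lipids whose inositol ring is phosphorylated at different positions. Lipid kinases build phosphatidylinositol bisphosphate, which phospholipase C cleaves into inositol trisphosphate (IP3) and diacylglycerol: IP3 opens calcium channels of the endoplasmic reticulum, and diacylglycerol activates protein kinase C. PI 3-kinases turn the same lipid into a trisphosphate that recruits Akt, and phosphatases remove the phosphates that the lipid kinases add. In thyroid cells TSH acts mainly through cAMP, while calcium and diacylglycerol take part in iodide organification and hydrogen peroxide production, and insulin or IGF1 act through PI 3-kinase.

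*Pax8* itself was above background in all 32 channels. Against wt its replicates were at -0.84, -0.57, -0.59 and -0.26, a mean of -0.56 ± 0.24 (SD, n = 4), or 67.6% of the wt level (limma, adjusted p = 0.000451). Against siScramble they were at -0.58, -0.29, -0.12 and -0.01, a mean of -0.25 ± 0.25 or 84.2% (adjusted p = 0.142). In both comparisons all 4 replicates lay below 0, and against siScramble the value did not pass the threshold. Whether fewer cells were silenced, or all cells in part, cannot be told apart in bulk RNA, and the same holds for every ratio below.

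Per array, 51.0% to 57.9% of the spots in Cy5 and 53.0% to 59.5% in Cy3 were well above background. All 11 thyroid follicular markers that could be named were above background, whereas 0 of 3 endothelial, 1 of 4 fibroblast, 1 of 2 leukocyte and 2 of 5 C cell markers were. Of these 4, chosen for naming after their values were seen, the leukocyte marker *Cd68* rose against wt (0.30, adjusted p = 0.000753) and was at -0.00251 against siScramble, and the C cell marker *Ret* fell against wt (-0.14, adjusted p = 0.0049) and was at -0.23 against siScramble (adjusted p = 0.00505). *Calca* and *Col1a2* were at -0.15 and 0.06 against wt and at 0.04 and 0.04 against siScramble, with no call. Against wt, 9 of these 11 thyroid markers fell and 1 rose (median -0.60), and against siScramble 2 fell (median -0.18). Of 18 genes of an interferon response list above background, 16 rose against wt (median 1.21, range -0.14 to 2.93) and 2 against siScramble (median 0.20, range -0.06 to 0.74). These lists changed in the same comparisons as the phosphoinositide genes described here, and their part in the results was not tested.

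Against wt, 11 of the 43 phosphoinositide genes above background fell, 3 rose and 29 did not pass the adjusted p threshold of 0.005. The called share was 32.6%, beside 26.9% of the 21777 features (genes or unnamed probes) above background, and 29.4% of all 51 genes were called beside 15.1% of all 39052 features tested. By direction, 25.6% of the genes above background were called lower, beside 14.7% of those features, and 6.98% were called higher, beside 12.2%. The median log2 ratio of the 43 genes was -0.05 ± 0.03 (SD of the 4 replicate medians), with -0.01 for all features above background, and the median size of a ratio, leaving out its sign, was 0.12 against 0.10. Many genes of every kind were called in this comparison, so the counts below are to be read against these shares.

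Against siScramble, *Plcg2*, *Plcd4* and *Synj2* fell and no gene rose. The called share was 6.98%, beside 3.79% of the features above background (2.11% of all features tested), and 1.6% of those were called lower and 2.19% higher. No gene was called higher by limma, while at an unadjusted p under 0.05 there were 8 higher and 6 lower genes. The share of all features at that unadjusted p was not counted, so these 2 numbers are no result about these genes in particular. The median was 0.01 ± 0.02, with -0.01 for all features above background, and the median size was 0.05 against 0.06.

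**Figure D1:**
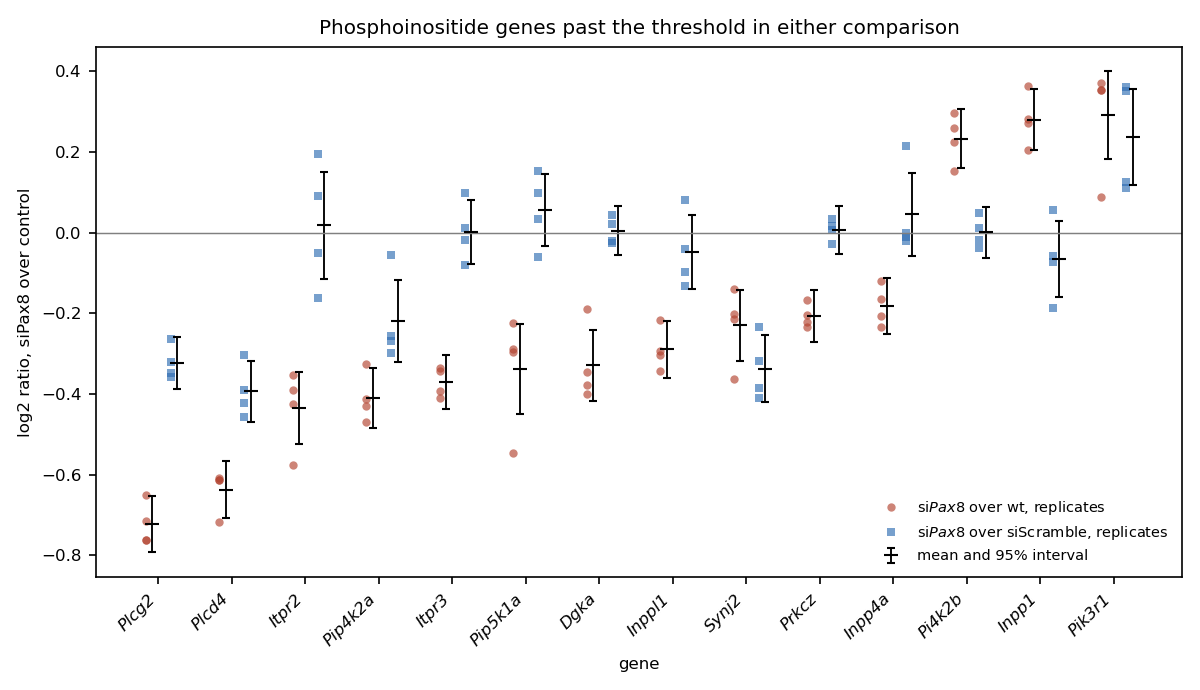
Log2 ratio of si*Pax8* over the control (y axis) for the 14 phosphoinositide genes past the threshold in either comparison (x axis, ordered by the mean against wt). Circles are the 4 replicates against wt, squares those against siScramble, and bars the mean with its 95% interval from limma. *Plcg2*, *Plcd4*, *Synj2* and *Pip4k2a* lie below 0 in all 8 values, and *Pik3r1* lies above 0 in all 8. *Itpr3*, *Dgka* and *Prkcz* lie below 0 against wt and around 0 against siScramble.

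The phospholipases C held the largest decreases against wt. Of 7 phospholipase C genes above background, *Plcg2* and *Plcd4* fell in both comparisons and 5 passed in neither. The bases before the start of *Plcg2*, *Plcd4* and *Synj2*, the 3 genes called lower in each comparison, are shown because the silenced factor binds DNA. They are the 250 bases before each gene's start in RefSeq (rat build GRCr8), chr19:62455946-62456195 for *Plcg2*, chr9:83566014-83566263 for *Plcd4* and chr1:48923578-48923827 for *Synj2*, all on the plus strand, 5′ to 3′, with GC boxes (GGGCGG) in capitals.
Plcg2: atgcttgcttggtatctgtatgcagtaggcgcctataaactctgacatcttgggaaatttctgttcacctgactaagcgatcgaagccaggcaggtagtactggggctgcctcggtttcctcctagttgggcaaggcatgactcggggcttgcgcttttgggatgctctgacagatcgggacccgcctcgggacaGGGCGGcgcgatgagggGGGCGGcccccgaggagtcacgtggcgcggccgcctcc
Plcd4: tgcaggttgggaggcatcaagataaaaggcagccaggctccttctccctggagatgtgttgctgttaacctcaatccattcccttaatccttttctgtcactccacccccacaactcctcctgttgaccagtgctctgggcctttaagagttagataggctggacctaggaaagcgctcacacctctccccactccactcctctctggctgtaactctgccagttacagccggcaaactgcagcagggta
Synj2: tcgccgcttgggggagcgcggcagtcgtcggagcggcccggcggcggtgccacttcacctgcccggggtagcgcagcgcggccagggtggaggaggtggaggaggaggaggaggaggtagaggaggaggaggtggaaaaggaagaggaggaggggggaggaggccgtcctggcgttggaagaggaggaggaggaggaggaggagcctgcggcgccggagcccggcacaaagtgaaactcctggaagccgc

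The 3 stretches differ in composition, with 60.8% G and C for *Plcg2*, 53.2% for *Plcd4* and 70.4% for *Synj2*, and the *Synj2* stretch holds long runs of gga repeats. Both strands were searched for the core GCGTGAC of the Pax2/5/8 family, the AP-1 site TGANTCA, the cAMP response element TGACGTCA and the GC box GGGCGG, whose letters do not overlap one another in these stretches. The Pax2/5/8 core was in none of the 3, and among the 41 phosphoinositide genes with a sequence it was found for *Plcg1* alone, that is in 2.44% beside 1.74% of 33469 promoters of all genes. The AP-1 site was in 2 of the 41, *Inpp1* and *Pip5k1b* (4.88% beside 6.34%), and the cAMP response element in 0 (beside 1.59%). The GC box was in 26 of the 41 (63.4% beside 30.5%), among them *Plcg2*, 38 and 55 bases before its start, but not *Plcd4* or *Synj2*. Where RefSeq listed several starts for a member, the first was used, whereas the shares over all genes count every listed start. Base composition was not compared between the members and all genes, so these shares are no test of enrichment. A match is a run of letters and not a measured site, and the absence of these letters says nothing about binding elsewhere at the gene. The study also mapped Pax8 binding in PCCl3 cells by ChIP-Seq, and those peaks were not used here.

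*Plcg2*, a phospholipase C that tyrosine kinases activate and that is best known from B cells, had replicates at -0.76, -0.65, -0.71 and -0.76 against wt. Their mean of -0.72 ± 0.05 was 60.6% of the wt level (adjusted p = 6.85e-07). Against siScramble they lay at -0.26, -0.35, -0.36 and -0.32, with a mean of -0.32 ± 0.04 or 80.0% (adjusted p = 0.00097). The replicates of the comparisons did not overlap, and the difference of -0.40 passed its own test (adjusted p = 0.000139). Against siScramble the value was -0.18 with si*Pax8* in Cy5 alone and -0.46 in Cy3 alone, and the call was lost in Cy5 alone (adjusted p = 0.08), without replicate 2 (-0.31, adjusted p = 0.0137), without replicate 3 (-0.31, adjusted p = 0.00962) and with Agilent's processed signals (-0.39, adjusted p = 0.0341).

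*Plcd4*, a calcium-dependent enzyme of the delta class, lay at -0.72, -0.61, -0.61 and -0.61 against wt, a mean of -0.64 ± 0.05 or 64.3% of the wt level (adjusted p = 1.43e-06). Against siScramble it lay at -0.30, -0.42, -0.39 and -0.46, with a mean of -0.39 ± 0.07 or 76.1% (adjusted p = 0.00084). No replicate of the first comparison overlapped with the second, but the difference of -0.24 narrowly missed the threshold (adjusted p = 0.00511). Its call against siScramble was lost without replicate 2 (-0.38, adjusted p = 0.0122), without replicate 3 (-0.39, adjusted p = 0.00891), with si*Pax8* in Cy5 alone (-0.35, adjusted p = 0.00703) and with the processed signals (-0.55, adjusted p = 0.0183). *Plcg2* and *Plcd4* were the only members whose calls against wt held in each of the 18 other settings run.

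The beta class, which G proteins of the Gq family activate, gave no decrease. *Plcb4* lay at 0.02, -0.07, -0.05 and 0.00 against wt (mean -0.02 ± 0.04, adjusted p = 0.696) and at 0.20, 0.28, 0.21 and 0.38 against siScramble (mean 0.27 ± 0.08, adjusted p = 0.00541). All replicates against siScramble lay above those against wt, and this difference of -0.29 was called (adjusted p = 0.00249). *Plcb1* was at 0.13 ± 0.07 and 0.18 ± 0.07 and passed in neither comparison (adjusted p = 0.0202 and 0.0192). Its 2 probes disagreed against wt, with 0.23 for one (adjusted p = 0.00125) and 0.02 for the other (adjusted p = 0.806). *Plcg1*, the widely expressed relative of *Plcg2*, had means of 0.04 ± 0.13 and 0.16 ± 0.24, the second from replicates between -0.02 and 0.49. *Plcb3* and the Ras-responsive *Plce1* were at -0.03 and -0.13 against wt and at 0.08 and 0.02 against siScramble, with no call.

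Of the 3 IP3 receptors, the calcium channels on which IP3 acts, *Itpr2* and *Itpr3* fell against wt and *Itpr1* did not pass. *Itpr2* lay at -0.58, -0.35, -0.42 and -0.39 against wt, with a mean of -0.44 ± 0.10 or 73.9% (adjusted p = 4.98e-05). Against siScramble its replicates lay on both sides of 0, at -0.16, -0.05, 0.09 and 0.19 (mean 0.02 ± 0.16, adjusted p = 0.923). The difference of -0.45 was called (adjusted p = 0.00324), and each of its 3 probes, at -0.50, -0.36 and -0.44, was called against wt. *Itpr3* lay between -0.41 and -0.34 against wt, a mean of -0.37 ± 0.04 or 77.3% (adjusted p = 2.26e-05), and between -0.08 and 0.10 against siScramble (mean 0.00 ± 0.07, adjusted p = 0.987). Its 2 probes, at -0.36 and -0.38, gave like values, and its difference of -0.37 was called (adjusted p = 0.000389). *Itpr1* had a mean of -0.01 ± 0.15 against wt, with a 95% interval from -0.13 to 0.10, and of 0.00 ± 0.05 against siScramble. The 3 IP3 kinases, which phosphorylate IP3 further, gave no call: *Itpka* was at -0.09 ± 0.08 and -0.12 ± 0.02 (adjusted p = 0.115 and 0.0291), *Itpkb* at 0.04 and 0.01, and *Itpkc* at 0.04 and -0.05.

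On the diacylglycerol side, *Dgka*, a kinase that converts diacylglycerol to phosphatidic acid, lay at -0.35, -0.19, -0.38 and -0.40 against wt. Its mean of -0.33 ± 0.10 was 79.6% of the wt level (adjusted p = 0.00025). Against siScramble it lay between -0.03 and 0.04 (mean 0.00 ± 0.03, adjusted p = 0.961), so that the groups did not overlap, and the difference of -0.33 was called (adjusted p = 0.00156). By dye of the si*Pax8* sample, *Dgka* was at -0.17 against wt in Cy5 alone (adjusted p = 0.00981) and -0.49 in Cy3 alone. Against siScramble it was at 0.15 and -0.145, so it was lower in Cy3 in both comparisons, and the mean near 0 averages these. *Dgkz*, another kinase of this class, was at -0.06 ± 0.07 against wt and -0.16 ± 0.09 against siScramble (adjusted p = 0.0435).

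*Prkcz*, an atypical protein kinase C that responds to neither calcium nor diacylglycerol, lay at -0.23, -0.17, -0.20 and -0.22 against wt (mean -0.21 ± 0.03, 86.7%, adjusted p = 0.000616). Against siScramble it lay between -0.03 and 0.03 (mean 0.01 ± 0.03, adjusted p = 0.938), and the difference of -0.21 was called (adjusted p = 0.00257). Without replicate 3 or 4 its value against wt remained -0.21 or -0.20 but missed the threshold (adjusted p = 0.00601 and 0.00547), as it did in Cy5 alone (-0.12, adjusted p = 0.0226). In Cy3 alone it was at -0.29 against wt. Against siScramble it was at 0.11 in Cy5 alone and -0.10 in Cy3 alone. *Prkcd* and *Prkce*, which diacylglycerol activates without calcium, were at 0.02 and -0.02 against wt and at 0.03 and -0.01 against siScramble, with no call. *Prkcb*, the conventional beta enzyme, was well above background in 8 of 8 wt channels and 3 of 8 siScramble channels but in 0 of 8 si*Pax8* channels of either comparison. Its log2 ratio was -0.24 against wt (adjusted p = 0.000333) and -0.10 against siScramble (adjusted p = 0.0824), and since the si*Pax8* signal was not well above background, no fold is given.

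Among the kinases that build phosphatidylinositol bisphosphate, *Pip4k2a* and *Pip5k1a* fell against wt. *Pip4k2a*, which phosphorylates the 5-phosphate form, lay at -0.43, -0.47, -0.41 and -0.33, a mean of -0.41 ± 0.06 or 75.3% (adjusted p = 2.29e-05). Against siScramble it lay at -0.30, -0.06, -0.26 and -0.27 (mean -0.22 ± 0.11, adjusted p = 0.023), all below 0 and above those against wt. This difference of -0.19 did not pass (adjusted p = 0.0562). *Pip5k1a*, which phosphorylates the 4-phosphate form, lay at -0.55, -0.29, -0.29 and -0.22 against wt (mean -0.34 ± 0.14, 79.1%, adjusted p = 0.000858) and between -0.06 and 0.15 against siScramble (mean 0.06 ± 0.09). The difference of -0.39 was called (adjusted p = 0.00483), while the call against wt was lost without replicate 2 (-0.36, adjusted p = 0.00531) and without replicate 3 (-0.35, adjusted p = 0.00618). Its value comes from 1 of its 2 probes, since the other, at 0.04 against wt, was above background in 11 channels. *Pip5k1b* was at 0.02 ± 0.08 against wt and at 0.33, 0.27, 0.12 and 0.21 against siScramble (mean 0.23 ± 0.09, adjusted p = 0.0117). *Pip4k2b* and *Pip4k2c* were at -0.05 and -0.14 against wt and -0.04 and 0.06 against siScramble, with no call.

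Of the 3 PI 4-kinases, which make the 4-phosphate lipid, *Pi4k2b* rose against wt, with replicates at 0.15, 0.26, 0.30 and 0.22 and a mean of 0.23 ± 0.06 or 118% (adjusted p = 0.000667). Against siScramble it lay between -0.04 and 0.05 (mean 0.00 ± 0.04, adjusted p = 0.994), and the difference of 0.23 was called (adjusted p = 0.00446). The value against wt was 0.06 with si*Pax8* in Cy5 alone (adjusted p = 0.293) and 0.40 in Cy3 alone. Against siScramble it was -0.16 and 0.17, so it was higher in Cy3 in both comparisons. Without replicates 2 or 3 the value against wt was 0.22 and 0.21 and missed the threshold (adjusted p = 0.00612 and 0.00702). *Pi4k2a* and *Pi4kb* were at -0.12 and 0.06 against wt and at 0.11 and 0.02 against siScramble.

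*Pik3r1*, the regulatory p85 alpha subunit of PI 3-kinase, rose against wt, with replicates at 0.35, 0.35, 0.09 and 0.37 and a mean of 0.29 ± 0.14 or 122% (adjusted p = 0.00173). Against siScramble it was at 0.11, 0.13, 0.36 and 0.35, a mean of 0.24 ± 0.14 that did not pass (adjusted p = 0.0323). The groups overlapped and the difference was 0.05, with a 95% interval from -0.12 to 0.23. The call against wt was lost without replicate 2 (0.27, adjusted p = 0.0145) and without replicate 4 (0.26, adjusted p = 0.0133), and the processed signals gave 0.70 (adjusted p = 0.0172). *Pik3r3*, a shorter regulatory subunit, had the largest mean of all members against siScramble, 0.43 ± 0.38, but its replicates were at 0.21, 0.01, 0.76 and 0.73 (adjusted p = 0.0927). Against wt it was at -0.21 ± 0.19 (adjusted p = 0.034), with replicate 3 at -0.48 and the others between -0.15 and -0.08. The groups did not overlap, and the difference of -0.63 had a 95% interval from -0.99 to -0.28 (adjusted p = 0.029). *Pik3cb*, the p110 beta catalytic subunit, was at 0.04 ± 0.05 and 0.10 ± 0.09, *Pik3r2* at -0.16 and 0.00, and *Pik3c3*, the class III enzyme, at 0.03 and -0.02, with no call. All 4 replicates of *Pik3r2* lay below 0 against wt (limma, adjusted p = 0.0076). Of its 2 probes, 1 passed against wt (-0.17, adjusted p = 0.00335) and the other did not (-0.15, adjusted p = 0.0202).

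Of the 9 phosphatases above background, *Inppl1*, *Synj2* and *Inpp4a* fell and *Inpp1* rose against wt. *Synj2*, synaptojanin 2, a 5-phosphatase of the endocytic pathway, was the only phosphatase called against siScramble. It lay at -0.14, -0.21, -0.20 and -0.36 against wt (mean -0.23 ± 0.09, 85.3%, adjusted p = 0.00192) and at -0.23, -0.32, -0.39 and -0.41 against siScramble (mean -0.34 ± 0.08, 79.2%, adjusted p = 0.00214). The replicates overlapped, and the difference of 0.11 had a 95% interval from -0.01 to 0.23 (adjusted p = 0.304). Its call was lost in both comparisons without replicate 2 (-0.24 and -0.34, adjusted p = 0.0115 and 0.0207), without replicate 3 (-0.24 and -0.32, adjusted p = 0.0119 and 0.0167) and without replicate 4 (-0.19 and -0.31, adjusted p = 0.00852 and 0.00803). By dye of the si*Pax8* sample, it was at -0.28 (Cy5) and -0.18 (Cy3) against wt, and at -0.44 and -0.24 against siScramble.

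*Inppl1*, known as SHIP2, removes the 5-phosphate from the product of PI 3-kinase. It lay at -0.22, -0.29, -0.30 and -0.34 against wt (mean -0.29 ± 0.05, 81.8%, adjusted p = 0.000146) and between -0.13 and 0.08 against siScramble (mean -0.05 ± 0.09). The groups did not overlap, but the difference of -0.24 did not pass (adjusted p = 0.0114). The value against wt was -0.48 where Cy5 labelled si*Pax8* but -0.10 where Cy3 did (adjusted p = 0.179). Against siScramble it was -0.18 and 0.08, so it was lower in Cy5 in both comparisons. *Inpp4a*, which removes the 4-phosphate next in line, was at -0.18 ± 0.05 against wt (88.2%, adjusted p = 0.00198) and 0.05 ± 0.11 against siScramble, with a difference of -0.23 (adjusted p = 0.0238). Its 2 probes gave -0.09 (adjusted p = 0.0689) and -0.27 (adjusted p = 0.000361) against wt, and its call was lost without replicate 2, 3 or 4 (-0.20, -0.19 and -0.17, adjusted p = 0.00533, 0.013 and 0.0146).

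*Inpp1*, which removes the 1-phosphate of soluble inositol phosphates, moved the other way. It lay at 0.36, 0.27, 0.28 and 0.20 against wt (mean 0.28 ± 0.06, 121%, adjusted p = 0.000246), and at 0.06, -0.06, -0.07 and -0.19 against siScramble (mean -0.06 ± 0.10). The groups did not overlap, and the difference of 0.34 was called (adjusted p = 0.00227). *Inpp5d*, known as SHIP1 and typical of blood cells, was at -0.12 ± 0.04 against wt (adjusted p = 0.0166) as the mean of 2 unlike probes. One was at 0.01, and the other, well above background in 8 of 8 wt but 3 of 8 si*Pax8* channels of these arrays, was at -0.24 (adjusted p = 0.000298). *Mtmr3*, a phosphatase of the 3-phosphate lipid, was at 0.09 ± 0.02 against wt (adjusted p = 0.0353), again from unlike probes, at -0.0012 and 0.19 (adjusted p = 0.0028 for the second). *Inpp5j*, *Inpp5k* and *Mtmr9* lay between -0.12 and 0.03 against wt and between -0.06 and 0.08 against siScramble.

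The other 7 genes that were not above background, in 0 to 6 of the 32 channels, had ratios between -0.10 and 0.03 against wt and between -0.05 and 0.03 against siScramble, which for such dim probes carry no order. Of the genes that share only a prefix, *Itpripl1* was at -0.13 and -0.01 and *Synj2bp* at 0.10 and 0.05, with no call, although 1 of the 3 *Synj2bp* probes passed against wt (0.23, adjusted p = 0.000519) while the others were at 0.03.

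**Figure D2:**
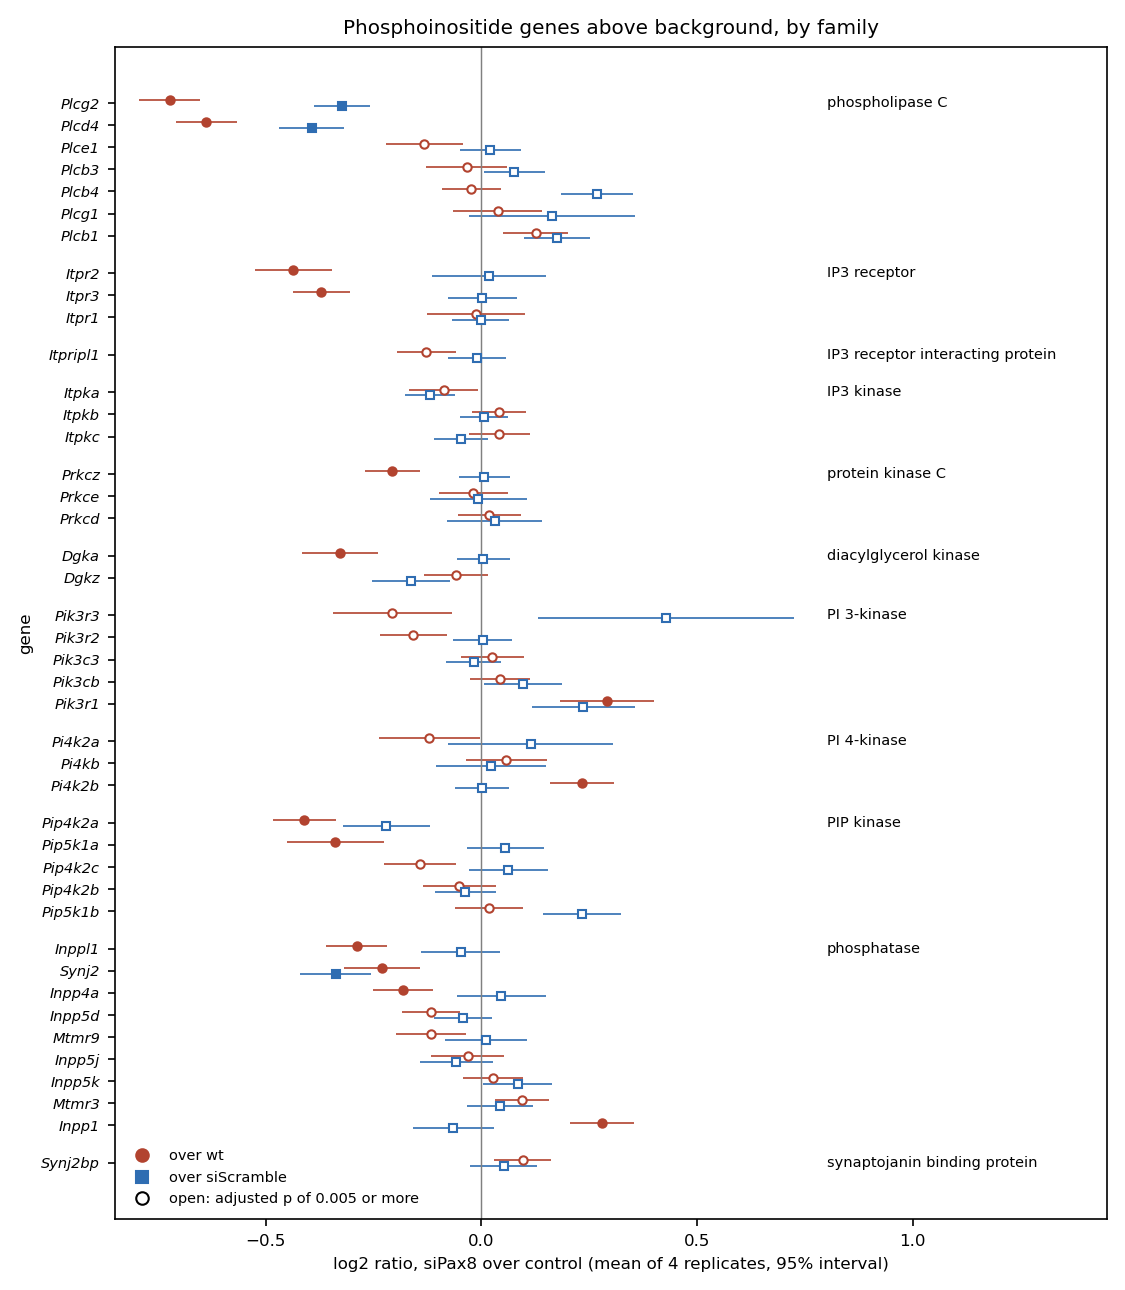
Mean log2 ratio of si*Pax8* over the control with its 95% interval (x axis) for 42 of the 43 phosphoinositide genes above background (y axis), grouped by family. Circles are values against wt and squares values against siScramble, filled where the adjusted p was below 0.005. Against wt the filled symbols reach from -0.72 for *Plcg2* to 0.29 for *Pik3r1*, and against siScramble 3 symbols are filled.

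Between the comparisons, 9 genes differed past the threshold, 20.9% of the 43 genes above background beside 6.12% of the features above background (3.43% of all features tested). The 7 lower ones were 16.3% of the genes, beside 3.21% of the features, and the 2 higher ones 4.65%, beside 2.91%. Because both ratios have si*Pax8* as numerator, this difference compares siScramble with wt cells only as far as the si*Pax8* samples of both were alike. *Itpr2*, *Plcg2*, *Pip5k1a*, *Itpr3*, *Dgka*, *Plcb4* and *Prkcz* had lower ratios against wt than against siScramble, by 0.45 to 0.21, and *Inpp1* and *Pi4k2b* higher ones, by 0.34 and 0.23. For 7 of these 9 genes the mean against siScramble lay between -0.06 and 0.06, for *Plcg2* it was called lower as well, and for *Plcb4* it was the one that departed from 0. The number of differing genes was 5 without replicate 1 and 2 without each of replicates 2, 3 and 4. Differing features over the whole array were not counted in these settings, so whether this drop is particular to these genes cannot be read.

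**Figure D3:**
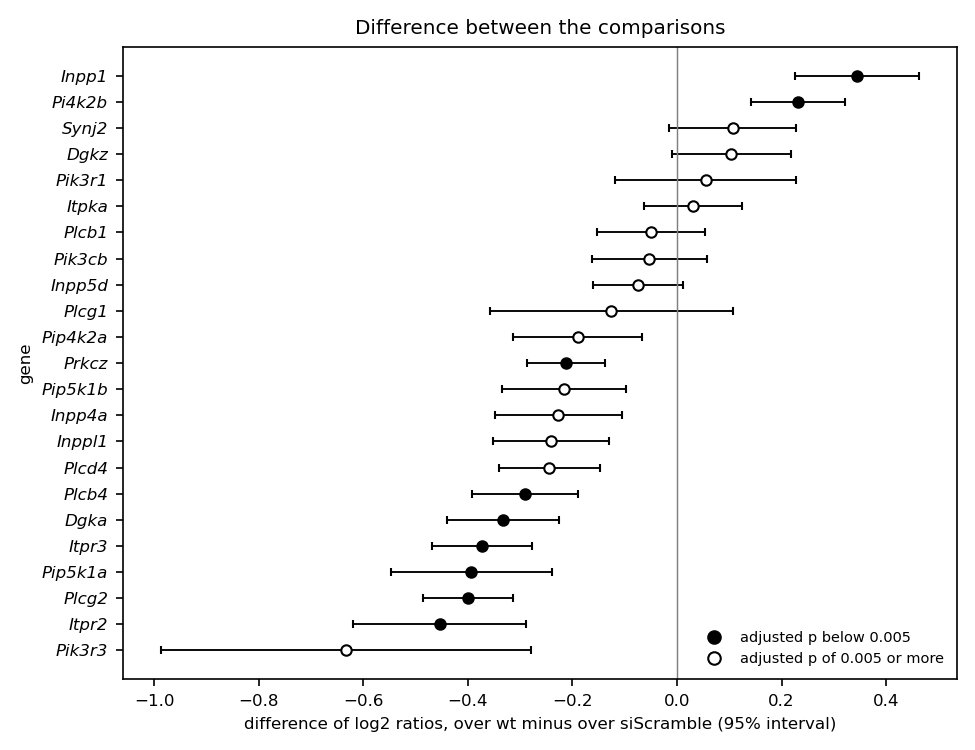
Difference of the log2 ratios, against wt minus against siScramble, with its 95% interval from limma (x axis), for the 23 named phosphoinositide genes (y axis). Filled circles passed the adjusted p threshold of 0.005: 7 lie below 0 and 2, *Inpp1* and *Pi4k2b*, above it.

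Within each of the 4 slides, which hold 2 arrays of each comparison, the genes called against a control kept their direction. Over the slides *Plcg2* spanned -0.78 to -0.66 against wt and -0.43 to -0.28 against siScramble, *Plcd4* -0.71 to -0.59 and -0.44 to -0.37, and *Synj2* -0.29 to -0.20 and -0.37 to -0.31. The slides' medians over the 43 genes lay between -0.09 and -0.03 against wt, and between -0.01 and 0.04 for siScramble.

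Beyond these families, 106 further genes of the pathway were listed, of which 71 could be named and 61 were above background. Against wt 7 of the 61 rose and 11 fell, and against siScramble 1 rose and 2 fell. Of all features above background, 12.2% were called higher and 14.7% lower against wt, and 2.19% and 1.6% against siScramble. The counts of these further genes and of their separate lists are to be read against these shares. Of the 18 other enzymes of inositol lipids and inositol phosphates, 1 rose and 4 fell against wt. *Bpnt1*, a bisphosphate nucleotidase, fell against wt (-0.25 ± 0.08, adjusted p = 0.000771).

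Of the 14 effectors of PI 3-kinase lipids, 1 rose and 1 fell against wt. *Phlpp1*, a phosphatase of Akt, rose with 0.53 ± 0.12 (adjusted p = 3.53e-05) and was at 0.27 ± 0.20 against siScramble (adjusted p = 0.0569). *Tsc2*, an inhibitor of mTOR signalling, fell with -0.25 ± 0.10 (adjusted p = 0.00163). Of the 14 calcium and diacylglycerol effectors, 3 rose and 2 fell against wt. *Calm3*, which encodes calmodulin, fell with -0.31 ± 0.06 (adjusted p = 9.54e-05), and the calcium pump *Atp2b1* rose with 0.30 ± 0.06 (adjusted p = 0.000126). Against siScramble they were at -0.18 and -0.05, with no call.

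Of the 14 receptors, G proteins and adaptors upstream, 2 rose and 4 fell against wt, and 1 rose and 2 fell against siScramble. *P2ry2*, a nucleotide receptor that acts through phospholipase C, fell in both (-0.51 ± 0.10, adjusted p = 2.25e-05, and -0.31 ± 0.05, adjusted p = 0.00144). *Adra1b*, an adrenergic receptor that couples to Gq, rose in both (0.20 ± 0.09, adjusted p = 0.00363, and 0.41 ± 0.08, adjusted p = 0.00103). *Gna11*, a G protein of the Gq family, fell against wt (-0.37 ± 0.05, adjusted p = 2.51e-05) and was at -0.16 ± 0.12 against siScramble. *Gna14*, of the same family, fell against siScramble (-0.21 ± 0.03, adjusted p = 0.00413) and was at -0.06 ± 0.04 against wt, and it is named although it fell outside the rule for named genes. The adaptor *Shc1* and the IGF1 receptor *Igf1r* fell against wt (-0.49 ± 0.05 and -0.26 ± 0.09, adjusted p = 6.56e-06 and 0.00083) and were at 0.06 and -0.02 against siScramble.

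**Figure D4:**
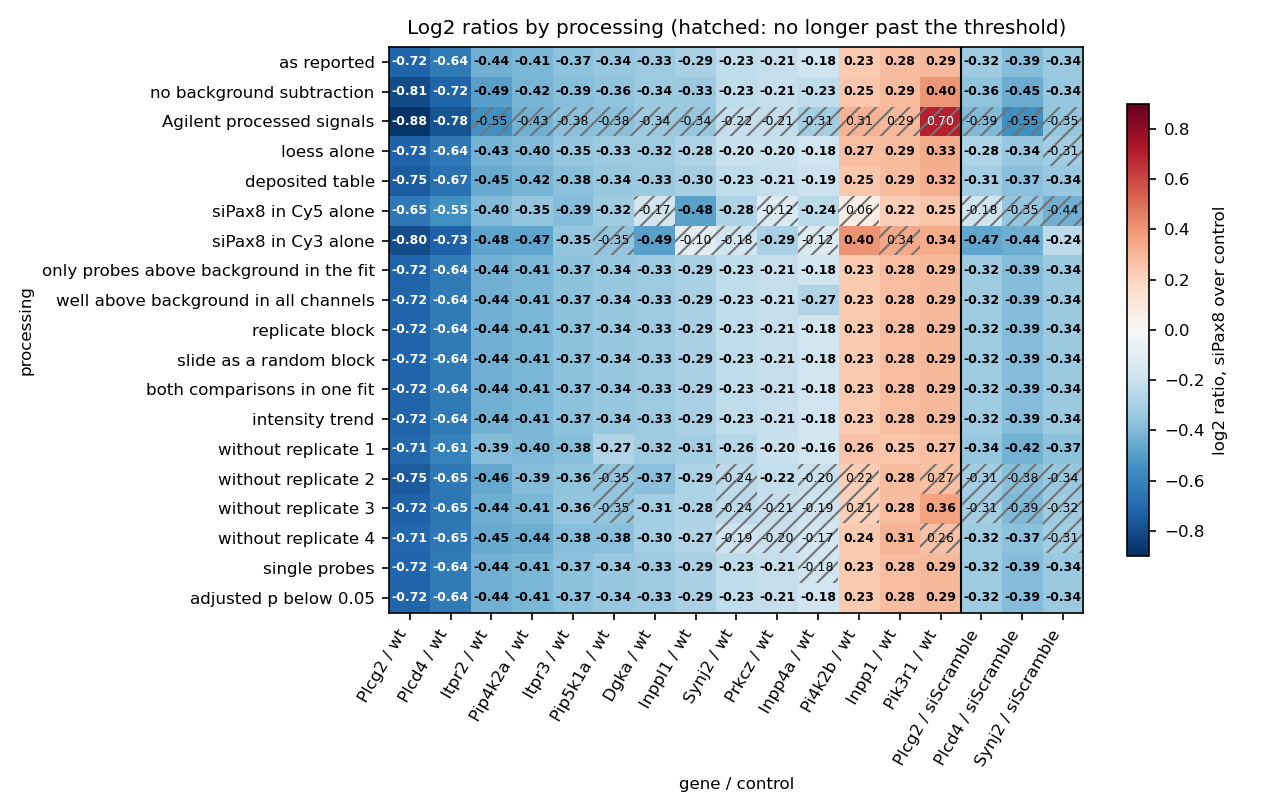
Log2 ratio of si*Pax8* over the control (colour and printed value) for the 14 genes called against wt and the 3 called against siScramble (x axis) as reported and under 18 other settings (y axis). Hatched cells no longer passed the threshold. *Plcg2* and *Plcd4* against wt have no hatched cell, and no cell changes sign.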

How the data were processed

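For every array the authors deposited a scanner file of Cy3 and Cy5 intensities (mean spot intensity, median local background, and intensities processed by Agilent's software) and 1 table of normalized log2 ratios. Per the file headers the scans had a resolution of 5 µm and were read by version 10.1.1.1 of Feature Extraction, which differs from the study's methods. The table's columns correlated with the arrays' own ratios once turned, so it holds control over si*Pax8*; it was used as an alternative.

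Here mean intensities were corrected with normexp (offset 50), normalized by loess within arrays (control and outlier spots at weight 0), freed of the 1639 control spots of 45018, and quantile normalized in R 4.3.3 with limma 3.58.1 and statmod 1.5.0. The gene of a probe was taken from RefSeq accessions (GRCr8, names and promoter sequences only). A log2 ratio is the mean over a probe's spots, then over the gene's probes above background (all its probes where none was), then over both dye orientations of the replicate. The orientations were paired by number. Deviations from the mean of the 4 replicates correlated by 0.33, 0.12, 0.40 and 0.47 against wt and 0.47, 0.57, 0.59 and 0.34 against siScramble. Replicate 2 against wt correlated more with another number (0.20), so its pairing is less sure.

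lmFit and eBayes were run on 4 values for each of 39052 features, separately per comparison, and on all 8 values for the difference between comparisons. p were adjusted by Benjamini-Hochberg over all features, with the study's threshold of 0.005; intervals are 95%. The procedure was tested on simulated data with fewer changed features than were called here. Changes of 0.25 were recovered in 0% of cases against wt, against siScramble and in the difference. Changes of 0.5 were recovered in 72%, 76.5% and 74.5%, and changes of 1 in 98.5%, 93.5% and 97.5%. At most 1 unchanged feature was called. A missing call therefore does not show that a small change was absent. Number of arrays and the signal over background, a median of 1.75 to 2.50 in Cy3 and 1.57 to 1.86 in Cy5, limit the precision. All arrays were scanned on 1 day.

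Named genes are every member past the threshold in a comparison or in the difference, the 10 largest ratios of each comparison among members above background, and 9 members of the study's own pathway lists (*Synj2*, *Plcg2*, *Plcd4*, *Itpka*, *Inpp5d*, *Dgkz*, *Plcb4*, *Pip5k1b* and *Pik3cb*), which were chosen on these samples and are no independent evidence. Of the other pathway genes, those among the 12 largest past the threshold are named. A few genes that these rules or families include are counted but not reported here by name. The members, the lists of pathway genes and markers, and these rules were chosen with earlier results of these data known. Alternatives covered background correction, normalization, dye, probe filter, model, threshold and leaving out each replicate. Columns of the authors' log ratios and errors in the scanner files were not used.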

Additional observations from a re-analysis of the deposited data

Results flagged for a closer look

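In 6 of 46 groups of 4 replicates (23 named genes in each comparison), 1 replicate stood apart, with a gap to its nearest neighbour of more of the group's range than Dixon's 95% critical value for 4 samples allows. Chance alone gives about 1 such group in 20. *Plcd4* against wt had replicate 1 at -0.72, with the others all at -0.61. *Pik3r1* against wt had replicate 3 at 0.0871, with the others between 0.35 and 0.37, and *Pik3cb* against wt had replicate 1 at -0.0338, with the others between 0.06 and 0.07. Against siScramble, *Pip4k2a* had replicate 2 at -0.0565 (others between -0.30 and -0.26), *Inpp4a* replicate 4 at 0.21 (others between -0.02 and 0.00) and *Inpp5d* replicate 4 at 0.0327 (others between -0.08 and -0.06).

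The ratios against wt and against siScramble differed past the threshold, by limma on the difference itself, for 9 genes. The difference, wt minus siScramble, was -0.45 for *Itpr2*, -0.40 for *Plcg2*, -0.39 for *Pip5k1a*, -0.37 for *Itpr3*, -0.33 for *Dgka*, -0.29 for *Plcb4* and -0.21 for *Prkcz*, and it was 0.34 for *Inpp1* and 0.23 for *Pi4k2b*.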

How the results depend on the processing

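Of the 14 genes called against wt, 2 kept their call in all 18 other settings, and of the 3 called against siScramble, 0 did; no named gene that was called changed sign. With the reported numbers of 11 lower and 3 higher genes against wt, 3 lower and 0 higher against siScramble and 9 in the difference, Agilent's processed signals gave 2 and 0, 0 and 0, and 0, with an unadjusted p under 0.05 in limma for 20 genes against wt and 12 against siScramble. Over all 39052 features the processed signals called 495 lower and 702 higher against wt, and 0 and 11 against siScramble. As reported, these numbers were 3222 and 2683, and 349 and 476. With si*Pax8* in Cy5 alone there were 0 lower against siScramble (17 genes with an unadjusted p under 0.05 in limma), beside 64 of all features, and 1 in the difference. In Cy3 alone there were 7 lower against wt, beside 1722 of all features. There 6 were higher against siScramble, beside 1581 of all features, and 2 differed between the comparisons. Genes higher against siScramble numbered 1 without background subtraction, with loess alone and with an intensity trend, 2 when one fit held both comparisons, and 4 with the slide as a random block. Over all features these settings called 648, 388, 567, 835 and 1297 higher, in that order. At an adjusted p below 0.05 there were 18 lower and 6 higher against wt, 6 lower and 4 higher against siScramble, and 16 in the difference. Numbers over all features were not counted at this threshold or at an unadjusted p under 0.05. Nor were they counted for the difference under other settings, here and below. Such counts without a number over all features are no result about these genes in particular. The causes were not tested.

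Leaving out 1 replicate gave 7 to 11 lower and 1 to 3 higher against wt, 0 to 3 lower and 0 higher against siScramble (0 lower without replicates 2 and 3, where 11 and 13 genes had an unadjusted p under 0.05 in limma), and 2 to 5 in the difference. Over all 39052 features these settings called 1722 to 3587 lower and 1569 to 2904 higher against wt. Against siScramble they called 36 to 128 lower and 81 to 280 higher, with 36 and 56 lower without replicates 2 and 3. As reported, 349 features were lower and 476 higher against siScramble. With 1 replicate left out, the medians of the members lay between -0.08 and -0.04 against wt, and between -0.002 and 0.02 for siScramble.

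With the replicate number as a block for the 8 arrays of a comparison, 3 genes were higher against siScramble (*Plcb4*, *Pip5k1b* and *Pik3r1*) and 4 lower, with 11 lower and 3 higher against wt as before. Over all features that fit called 1051 higher and 1035 lower against siScramble, and 3214 and 3876 against wt. Between the comparisons, deviations of same-numbered replicates correlated by 0.40, 0.18, 0.04 and 0.57. Replicate 3 correlated more with another number (0.41), while replicates 1, 2 and 4 correlated most with their own. Whether the numbers pair the comparisons is therefore not settled. With the replicate number as a block in limma on the difference, 10 genes differed, the 9 reported and *Inppl1* (-0.24, adjusted p = 0.00344). The signal over background limits values of dim probes, such as those of *Prkcb*.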
